A study of Mus musculus with 9 samples.

Results

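The 7 genes described belong to the S100 family of calcium-binding proteins: S100a8, S100a9, S100a4, S100a6, S100a10, S100a11 and S100a7a. They were taken by name as 7 of the 56860 rows of a table of RNA-seq counts, and all 7 were among the 19348 genes with enough counts to be tested. The table covered 9 mouse libraries, 3 in each of 3 groups. RNA came from the spleen, from cells that the labels call CD4+ T cells, the helper arm of T cells. One group was control mice, another was mice labelled CIA (not spelled out, in a series on RA) and the last was CIA mice that received luteolin, a flavone made by plants. The labels give no strain, age, sex, dose or schedule, and they do not say whether the replicates are separate animals, so the spread behind each p-value may be technical.

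S100 proteins are small proteins that bind calcium through paired EF-hand loops and usually work as dimers. S100A8 and S100A9 pair into calprotectin, which fills the cytosol of neutrophils and is released at sites of inflammation, where it binds metals and signals through the receptors TLR4 and RAGE. S100A4, S100A6, S100A10 and S100A11 act mainly inside cells on the cytoskeleton and on annexins, and S100A7A belongs to a group best known from inflamed skin.

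All 7 genes lie on chromosome 3, and 6 of them have a start site in the RefSeq promoter table. The stretches before the start sites of S100a8, S100a9, S100a4 and S100a11 are shown because the first pair moved together, S100a4 had another pattern, and S100a11 followed S100a8 and S100a9 most closely. Each runs 5′ to 3′ on the gene's own strand, from 194 bases before the annotated start to 6 bases after it. In GRCm38.p6, the build of that table, they lie at chr3:90668877-90669076 (+ strand), chr3:90695716-90695915 (- strand), chr3:90603576-90603775 (+ strand) and chr3:93520302-93520501 (+ strand). Capitals mark TATAAA in the first 3, the letters of a TATA box, and TGANTCA in S100a11, the letters bound by AP-1 factors.
S100a8: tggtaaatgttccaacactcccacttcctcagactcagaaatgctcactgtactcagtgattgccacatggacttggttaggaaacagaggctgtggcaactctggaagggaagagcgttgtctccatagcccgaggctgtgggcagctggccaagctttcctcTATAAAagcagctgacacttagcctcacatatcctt
S100a9: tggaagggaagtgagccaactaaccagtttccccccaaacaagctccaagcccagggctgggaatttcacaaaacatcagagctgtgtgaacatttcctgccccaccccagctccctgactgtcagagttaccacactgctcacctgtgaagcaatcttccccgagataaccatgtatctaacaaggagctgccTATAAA
S100a4: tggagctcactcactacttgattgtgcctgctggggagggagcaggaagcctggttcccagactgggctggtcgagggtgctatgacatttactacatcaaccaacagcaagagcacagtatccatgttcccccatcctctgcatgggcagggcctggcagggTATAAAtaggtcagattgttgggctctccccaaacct
S100a11: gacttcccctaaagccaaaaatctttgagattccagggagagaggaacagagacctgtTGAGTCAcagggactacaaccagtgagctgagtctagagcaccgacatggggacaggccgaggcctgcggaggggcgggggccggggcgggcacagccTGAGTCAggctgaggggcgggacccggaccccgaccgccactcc
In windows of 300 bases (250 before the start and 50 after), searched on the given strand, TATAAA stood in 3 of the 6 genes and in 8.32% of 32851 promoters. It began 30 bases before the start of S100a8 and 31 before that of S100a4, and at base 1 of the annotated transcript of S100a9. On both strands, TGANTCA was found in S100a11 alone among the 6 (136 and 38 bases before the start, 7.81% of promoters) and TTGCNNAA, letters bound by C/EBP factors, in S100a9 alone (236 before the start, 10.8%). GAGGAA, the core bound by PU.1, was in the windows of S100a8, S100a4 and S100a11 and in 28.3% of promoters. These matches describe letters and show no binding.

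Levels are CPM, counts per 1000000 counts of a library after TMM scaling, and a gene was called at an adjusted p under 0.05 in edgeR's quasi-likelihood test. Total counts ran from 31234177 to 41815573 per library, and replicates of the CIA group differed more among themselves than those of the other groups. The cell label was checked against Cd4, which stood at 2.92 ± 0.639 CPM (SD, n = 3) among libraries labelled control, 127.9 ± 39.6 in CIA and 103.8 ± 4.57 in CIA with luteolin. Cd3e, a chain of the T cell receptor complex, ran from 11.6 to 48.1 CPM, below S100a9 in every library. The summed marker list of neutrophils, given further on, exceeded the T cell list in every library. In such bulk samples, fewer cells of a type and less RNA per cell cannot be told apart.

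S100a9 (chr3:90599939-90603028 in mm39, - strand) was the most abundant of the 7 genes by far. It stood at 1928, 1514 and 1503 CPM in the control libraries, at 4783, 7110 and 8339 CPM in CIA and at 4287, 3843 and 3784 CPM in CIA with luteolin. All CIA libraries lay above all luteolin libraries, and these above all controls. S100a9 was 4.09-fold higher in CIA than in control (log2 fold change 2.03 ± 0.18 SE, adjusted p = 1.8e-05). With luteolin it was lower than in CIA (log2 fold change -0.76 ± 0.17, adjusted p = 0.00445) and still 2.41-fold above control (1.27 ± 0.18, adjusted p = 0.000244). S100a9 took 0.165% ± 0.0215 of all counts in control, 0.66% ± 0.16 in CIA and 0.401% ± 0.027 with luteolin.

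S100a8 (chr3:90576285-90577342, + strand), which encodes the other subunit of calprotectin, stood at 91.3, 98.4 and 103.6 CPM in control, at 260.8, 401.4 and 460.3 CPM in CIA and at 236.9, 248.8 and 262.7 CPM with luteolin. Controls lay below all other libraries, while the highest luteolin library passed the lowest CIA library. The rise in CIA was 3.83-fold (1.94 ± 0.17, adjusted p = 1.82e-05). The fall with luteolin was 0.58 ± 0.17 on the log2 scale (adjusted p = 0.0141), and S100a8 remained 2.55-fold above control (1.35 ± 0.17, adjusted p = 0.000127). The fall did not pass the threshold without CIA replicate 2 (adjusted p = 0.052), without luteolin replicate 1 (0.0561) or without luteolin replicate 2 (0.0584).

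The ratio of the 2 calprotectin messages was taken within each library, which needs no scaling. Per length, S100a9 was above S100a8 by 28.07, 20.46 and 19.29-fold in control, by 24.38, 23.55 and 24.08-fold in CIA and by 24.06, 20.54 and 19.15-fold with luteolin. The groups overlapped. The log2 ratio of S100a8 to S100a9 moved by -0.11 from control to CIA, by 0.18 from CIA to luteolin and by 0.08 from control to luteolin. An exact 2-sided permutation test gave p = 0.60, 0.20 and 0.70, and with 3 libraries a group it cannot go below 0.10.

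S100a6 (calcyclin, chr3:90520189-90531488, + strand) and S100a11 (chr3:93427795-93433594, + strand) moved the same way as the calprotectin pair, with separate groups. S100a6 stood at 21.7, 22.5 and 23.5 CPM in control, at 78.7, 142.5 and 164.6 in CIA and at 56, 59.6 and 61 with luteolin. Every CIA library was above every luteolin library, and the luteolin libraries lay close together. Its level rose 5.71-fold in CIA (2.51 ± 0.22, adjusted p = 1.69e-05) and was 2.18-fold lower with luteolin than in CIA (-1.13 ± 0.21, adjusted p = 0.00136).
S100a11 stood at 20.8, 23.9 and 21.6 CPM in control, at 64.1, 102.2 and 115.8 in CIA and at 46.6, 47.3 and 49 with luteolin, again without overlap. It rose 4.25-fold in CIA (2.09 ± 0.18, adjusted p = 1.69e-05) and was 1.97-fold lower with luteolin (-0.98 ± 0.18, adjusted p = 0.0011). With luteolin, S100a6 remained 2.61-fold and S100a11 2.15-fold above control (adjusted p = 0.000476 and 0.000638).

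S100a10 (p11, chr3:93462387-93471950, + strand), the partner of annexin A2 at the plasma membrane, had the smallest fold change of the 7 in CIA. It stood at 37.4, 41.8 and 52.5 CPM in control, at 64, 76.2 and 79.4 in CIA and at 74.7, 73 and 85.9 with luteolin. The CIA and luteolin libraries overlapped, and both lay above control. The rise was 1.67-fold in CIA (0.74 ± 0.13, adjusted p = 0.00119) and 1.77-fold with luteolin against control (0.83 ± 0.13, adjusted p = 0.000659). CIA with luteolin was not told apart from CIA, at a log2 fold change of 0.09 ± 0.13 (adjusted p = 0.606).

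S100a4 (metastasin, chr3:90511078-90513352, + strand), which binds non-muscle myosin, stood at 3.8, 1.9 and 2.63 CPM in control, at 18.6, 24.4 and 53.7 in CIA and at 49.6, 32.8 and 48 with luteolin. One CIA library stood above every luteolin library and the other two stood below them. The rise was 11.5-fold in CIA (3.53 ± 0.41, adjusted p = 9.3e-05) and 15.6-fold with luteolin against control (3.96 ± 0.41, adjusted p = 4.13e-05). Luteolin against CIA gave 0.43 ± 0.35 (adjusted p = 0.334), and without CIA replicate 3, the high one, 1.01 (adjusted p = 0.00169). It also passed when no filter on low counts was applied (adjusted p = 0.00229). That edgeR fit took S100a4 in CIA against control to an adjusted p of 4.59e-115 at a log2 fold change of 3.51. Passing in it therefore carries little weight. The gene shares 302 of its 584 exonic bases (51.7%) with the gene model Gm42674 on the same strand, whose counts were 97.3% to 100% of those of S100a4 in every library, so their reads cannot be told apart.

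S100a7a (chr3:90561324-90565976, + strand), a relative of human psoriasin, was the scarcest of the 7 and had the largest fold change in CIA and with luteolin against CIA. It had 18, 14 and 8 counts in control, 189, 289 and 227 in CIA and 40, 28 and 14 with luteolin, which is 0.45, 0.359 and 0.253 CPM, 5.25, 8.45 and 7.51 CPM, and 0.949, 0.705 and 0.416 CPM. The CIA libraries stood far above the rest, and the lowest luteolin library fell within the range of the controls. The rise in CIA was 19.5-fold (4.29 ± 0.33, adjusted p = 8.48e-06) and the fall with luteolin 10.1-fold (-3.33 ± 0.30, adjusted p = 1.19e-05). Luteolin against control gave 0.96 ± 0.37 (adjusted p = 0.0561), which passed with DESeq2 (0.0392), with no filter (0.0193), with a stricter filter (0.0436), without CIA replicate 1 (0.0369), without CIA replicate 3 (0.0492) and without luteolin replicate 3 (0.0233).

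**Figure D1:**
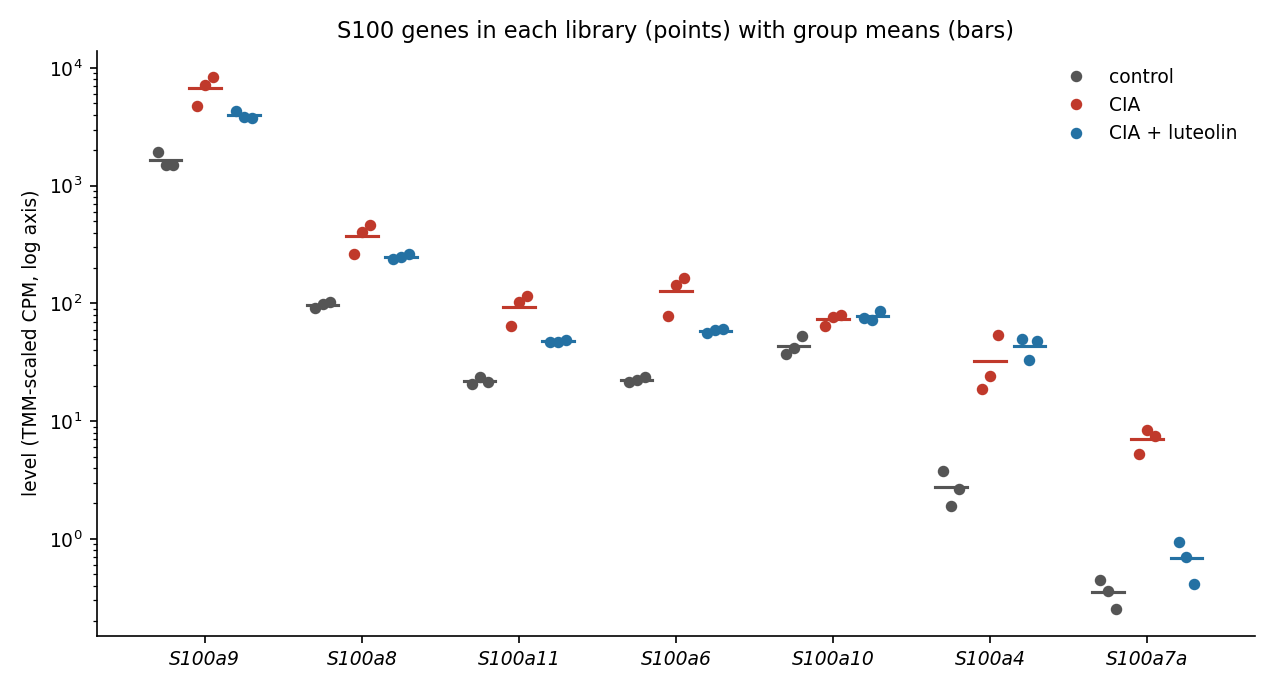
The y axis gives TMM-scaled CPM on a log scale, points are libraries and bars are means of 3. S100a7a separates CIA (5.25 to 8.45 CPM) from the other groups, and for S100a8, S100a10 and S100a4 the luteolin libraries overlap those of CIA.

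Of the 7 genes, 7 rose in CIA against control and 0 fell, with a median log2 fold change of 2.09 against -0.01 over all genes. Over all genes tested, 26.6% were called higher and 24.5% lower in that comparison. In luteolin against CIA, 5 of the 7 fell, 0 rose and 2 did not pass, with a median of -0.76 against -0.04 over all genes. There 23.1% of all genes were called higher and 24.2% lower, and no member was higher at an unadjusted p under 0.05 in edgeR or at an adjusted p under 0.05 in DESeq2. In luteolin against control 6 rose, 0 fell and S100a7a did not pass, with a median of 1.27 against -0.01, beside 24.2% of all genes called higher and 20.8% lower. The comparisons share libraries, so their values are given side by side and were not correlated.

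**Figure D2:**
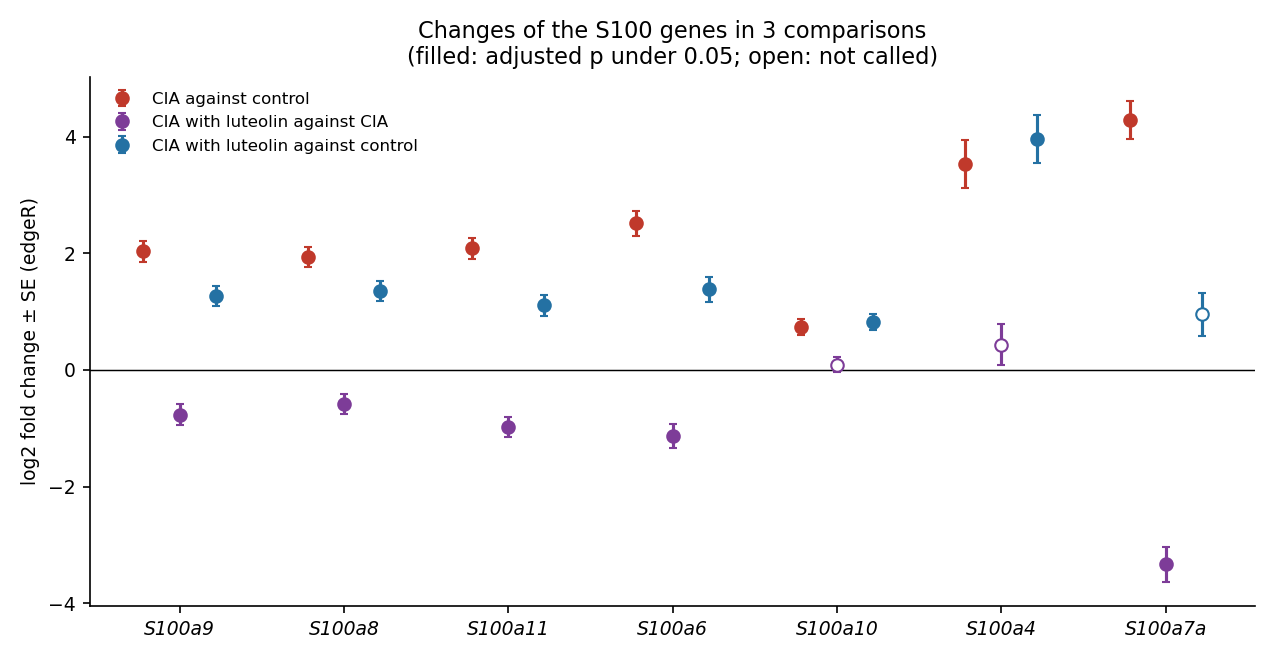
The y axis gives edgeR's log2 fold change with its SE for each gene in the 3 comparisons, filled where called. Changes in CIA run from 0.74 (S100a10) to 4.29 (S100a7a), and those with luteolin against CIA from -3.33 (S100a7a) to 0.43 (S100a4).

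Levels per length allow the genes to be ranked, within a limit. The length counts all annotated exon bases of a gene, which need not be those of the message expressed. The order depends on it: in control S100a10 had 43.9 CPM and S100a11 22.1 CPM. For S100a4, nearly all counts also went to Gm42674, which shares 302 of its 584 exonic bases, so its place is uncertain. In control the order in CPM per kilobase was S100a9 (3158 ± 463.7), S100a8 (140.9 ± 8.91), S100a11 (43.3 ± 3.16), S100a10 (36.2 ± 6.42), S100a6 (16.5 ± 0.656), S100a4 (4.75 ± 1.65) and S100a7a (0.257 ± 0.0716), where S100a11 and S100a10 overlapped. In CIA it was S100a9 (12919 ± 3460), S100a8 (539.2 ± 147.7), S100a11 (184.1 ± 52.5), S100a6 (94.1 ± 32.6), S100a10 (60.4 ± 6.71), S100a4 (55.2 ± 32.2) and S100a7a (5.14 ± 1.19), and S100a10 overlapped with S100a6 and with S100a4. With luteolin S100a4 (74.4 ± 15.9) and S100a10 (64.2 ± 5.76), which overlapped, stood between S100a11 (93.2 ± 2.43) and S100a6 (43.1 ± 1.86), beneath S100a9 (7608 ± 526.9) and S100a8 (359.5 ± 18.6). S100a7a was last again, at 0.501 ± 0.194 CPM per kilobase.

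A pair of ratios within a library separated the genes. Neither was a planned test. Each sets genes side by side whose log2 fold changes with luteolin against CIA already differed. These were 0.43 for S100a4 and -1.13 for S100a6, and -0.98 for S100a11 and 0.09 for S100a10. The ratios therefore restate those changes. The log2 ratio of S100a4 to S100a6, per length, was -1.28, -2.34 and -1.93 in control, -0.86, -1.32 and -0.39 in CIA and 1.05, 0.36 and 0.88 with luteolin, where every library was above all others. The log2 ratio of S100a11 to S100a10 was 0.40, 0.44 and -0.03 in control, 1.25, 1.67 and 1.79 in CIA and 0.57, 0.62 and 0.44 with luteolin, so that CIA stood apart.

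**Figure D3:**
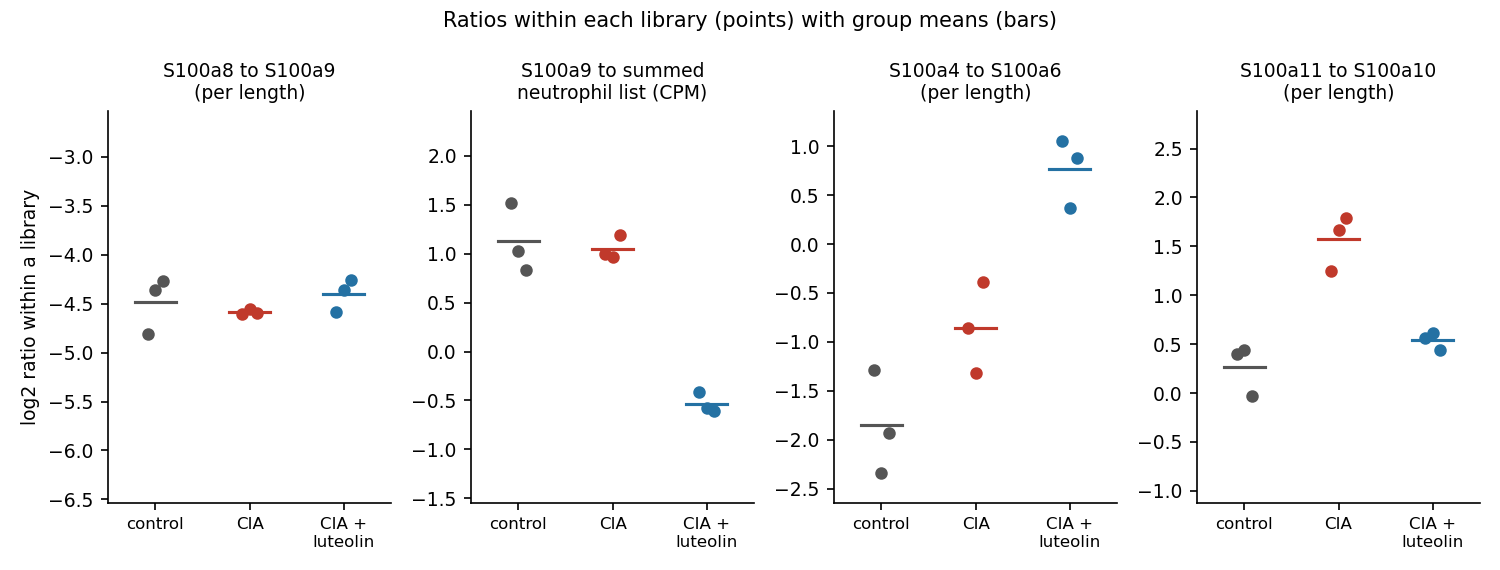
Each panel plots a log2 ratio per library (points) with group means (bars) on axes of the same span. S100a8 to S100a9 overlaps between groups. S100a9 to the summed neutrophil list, a sum that with luteolin is largely Ngp and Ltf, is lowest with luteolin (mean -0.54). S100a4 to S100a6 is highest with luteolin (0.77) and S100a11 to S100a10 is highest in CIA (1.57).

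Markers of other cells moved beside the S100 genes, and their part in the results was not tested. The counts of this list and those that follow stand beside the shares over all genes tested. These were 26.6% higher and 24.5% lower in CIA against control, and 23.1% higher and 24.2% lower in luteolin against CIA. Of 19 neutrophil genes, 16 rose in CIA, among them Ly6g (4.63 ± 0.31), Retnlg (3.39 ± 0.23), Mmp9 (2.71 ± 0.18) and Cxcr2 (2.38 ± 0.15), and their summed level went from 672.3 to 840.9 CPM in control to 2394 to 3655 CPM. With luteolin it was 5720 to 5780 CPM, with 9 genes higher than in CIA and 7 lower. Those higher included Mpo, Elane, Fcnb and Ctsg, with log2 fold changes of 7.39 ± 0.33 for Mpo, 6.73 ± 0.30 for Elane, 6.18 ± 0.24 for Fcnb and 4.89 ± 0.21 for Ctsg, and also Prtn3 (5.47), Ngp (3.11), Chil3 (2.57), Camp (1.99) and Ltf (1.73). Lower, as S100a8 and S100a9 were, stood Retnlg (-2.48 ± 0.22), Ly6g (-2.45 ± 0.26), Mmp9 (-1.77 ± 0.17), Padi4 (-0.88), Mmp8 (-0.77), Lcn2 (-0.76) and Cxcr2 (-0.60 ± 0.14), and the other 3 lay between -0.09 and 0.06. The log2 ratio of S100a9 to the summed list was 1.52, 1.03 and 0.84 in control, 0.998, 0.967 and 1.19 in CIA and -0.42, -0.58 and -0.61 with luteolin. The sum with luteolin was largely Ngp (262.3 ± 54.5 CPM in CIA, 2268 ± 28.7 with luteolin) and Ltf (290.8 ± 94.4, then 961.8 ± 50.9). Without these 2 genes, an alternative chosen after seeing the data, the list summed to 2675 ± 594 CPM in CIA and 2516 ± 63.8 with luteolin. The log2 ratio was then 1.52 ± 0.37 in control, 1.32 ± 0.15 in CIA and 0.66 ± 0.12 with luteolin, where every library was still below all others, and the drop from CIA was 0.67 in place of 1.59. That smaller sum still held genes that were higher with luteolin, such as Chil3 (81.7 ± 29.7 CPM in CIA, 484.8 ± 21.2 with luteolin) and Mpo (1.54 ± 0.339, then 260.9 ± 28.3). A sum without all of these genes was not tried. The drop therefore depends on the genes summed and is not one against neutrophil genes in general.

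The other lists give the setting of the S100 changes. Summed levels went from 529.9 to 667.7 CPM in control to 1274 to 2975 in CIA and 2801 to 3147 with luteolin for 14 genes of monocytes and macrophages (CIA against control 4 higher and 6 lower, with a list median of -0.27, and luteolin against CIA 13 higher). Lyz2, the lysozyme gene of myeloid cells, made up most of that sum in CIA (357.8 ± 45 CPM in control, 1890 ± 818 in CIA), and without it the other genes of the list summed to 247.9 ± 25 CPM in control, 203.7 ± 37.1 in CIA and 868.6 ± 47 with luteolin. For 14 T cell genes they were 443.5 to 484.9, 735.2 to 1179 and 710.5 to 734.3 CPM (12 higher, then 6 lower), and for 12 genes of activated and memory T cells, some of them also made by myeloid cells, 837 to 909.1, 1027 to 1783 and 1797 to 1905 CPM (8 higher and 1 lower, then 5 higher and 1 lower). The 9 B cell genes summed to 2098 to 2158, 287.3 to 1602 and 436.6 to 537 CPM (7 lower, then 2 lower). The 6 basophil and mast cell genes rose in both steps, to at most 200.4 CPM in sum, and the lists of NK cells, erythroid cells, fibroblasts and keratinocytes summed to at most 10.4 CPM in any library. The keratinocyte list, given because S100a7a is known from skin, summed to 0.625 to 0.743 CPM in control, 0.195 to 0.79 in CIA and 0.332 to 0.529 with luteolin. Over the CIA libraries Krt10 had 28 counts, Trp63 7, Dsg3 4, Krt14 1, and Krt1 and Krt5 were at 0 (4 and 3 counts in control).

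The table held 11 other S100 genes, 3 of them tested. S100a1, best known from heart and skeletal muscle, stood at 10.6, 10.5 and 6.87 CPM in control, at 9.62, 10.6 and 15.6 in CIA and at 40.9, 37.3 and 46.6 with luteolin. It was not called in CIA (0.35 ± 0.21, adjusted p = 0.184) and was 3.50-fold higher with luteolin than in CIA (1.81 ± 0.21, adjusted p = 6.04e-05), a direction in which 0 of the 7 genes were called. S100a13, which takes part in the release of growth factors that lack a signal peptide, rose by 0.59 ± 0.12 in CIA (adjusted p = 0.0019) and gave 0.29 ± 0.11 with luteolin against CIA (adjusted p = 0.0597). The latter passed without CIA replicate 3 (0.0237), on total counts without TMM (0.0317) and with the stricter filter (0.0373). S100a5 had 16 counts or fewer in any library and was lower with luteolin than in CIA (-1.87 ± 0.53, adjusted p = 0.0142), which did not pass without luteolin replicate 2 (0.0673) or without luteolin replicate 3 (0.0597). Against control it gave -1.57 ± 0.54 (adjusted p = 0.035, from 0.0311 to 0.13 over its alternatives).
Too scarce for the test, S100b, the astrocyte family member, had 4, 4 and 4 counts in control, 6, 15 and 34 in CIA and 0, 2 and 0 with luteolin. S100a2 had 4, 0 and 0 counts, then 14, 11 and 4, then 0, 0 and 1. S100a7l2 had 0 counts in all 9 libraries, and allowing 3 fragments (6 counts, since mates seem to have been counted separately) its level over all libraries is at most 0.0184 CPM.

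Genes of proteins that bind S100 proteins inside the cell were followed as a list of 8, of which 5 rose and 1 fell in CIA. The one that fell was Cacybp, the calcyclin-binding protein (-0.24 ± 0.08, adjusted p = 0.0248), which did not pass without control replicate 1 (0.0792), control replicate 3 (0.0516) or CIA replicate 2 (0.0753), with no filter (0.0796) or with the libraries compared alone (0.0602). Anxa2, which joins S100A10 in a complex, rose by 2.46 ± 0.22 (adjusted p = 1.95e-05) and was lower with luteolin than in CIA (-1.01 ± 0.21, adjusted p = 0.00263), whereas S100a10 itself was not called there. Myh9, the myosin bound by S100A4, rose by 0.80 ± 0.09 and then fell by 0.46 ± 0.09 with luteolin, and Ahnak, a scaffold that binds S100A10 with annexin A2, rose by 0.47 ± 0.08 in CIA. Anxa1, a partner of S100A11, rose in both steps (1.10 ± 0.14, then 1.38 ± 0.14), while S100a11 fell in the second. In luteolin against CIA 2 of the 8 were higher, Anxa1 and Cacybp (0.74 ± 0.08), and 3 were lower, Anxa2, Myh9 and Iqgap1 (-0.40 ± 0.08). Over all genes tested, 23.1% were called higher and 24.2% lower there, so the count of higher genes is near that share.

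Of 7 genes for receptors of extracellular S100 proteins and their adaptors, 5 rose in CIA and 0 fell, beside 26.6% and 24.5% of all genes. Tlr4, the receptor of calprotectin on myeloid cells, rose by 1.36 ± 0.19 (adjusted p = 0.000268), Cd14, its co-receptor, by 1.39 ± 0.30 (adjusted p = 0.003) and Bsg, a receptor for S100A9, by 0.71 ± 0.13 (adjusted p = 0.00126). Ly96, the TLR4 partner MD-2, rose by 0.84 ± 0.24 (adjusted p = 0.0144, and 0.0664 without CIA replicate 2). Myd88, the adaptor of TLR4, rose least (0.32 ± 0.11, adjusted p = 0.0362) and did not pass without CIA replicate 3 (0.0951), without control replicate 1 (0.106), without control replicate 2 (0.127), without luteolin replicate 1 (0.0568), without luteolin replicate 3 (0.0582), with no filter (0.0562) or with the libraries compared alone (0.0746). The other members of the list were not called: Ager, which encodes RAGE, gave 0.38 ± 0.16 (adjusted p = 0.0644, and 0.0437 with the stricter filter and 0.0269 without CIA replicate 2) and Cd36, a scavenger receptor, gave -0.42 ± 0.37 (adjusted p = 0.364, and 0.0268 with no filter). In luteolin against CIA 1 of the 7 changed, Ly96, which was lower (-0.96 ± 0.24, adjusted p = 0.00785). Of 8 transcription factor genes of myeloid cells and stress, 6 rose, 1 did not pass and 1, Irf8, a factor of monocyte and dendritic cell development, fell in CIA (-1.24 ± 0.37, adjusted p = 0.0165). Hif1a, the oxygen-regulated factor, rose by 1.23 ± 0.12, Spi1, which encodes PU.1, by 1.05 ± 0.14, Cebpd by 0.96 ± 0.14 and Cebpe, the factor of late granule formation, by 2.68 ± 0.28. In luteolin against CIA Cebpe alone of the 8 was called, and it was higher (2.00 ± 0.23, adjusted p = 6.78e-05).

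Along chromosome 3, S100a4, S100a6, S100a7a, S100a8 and S100a9 stand in one run and S100a11 and S100a10 in another. S100a5 lies between S100a4 and S100a6 and was not called in CIA (0.30 ± 0.46, adjusted p = 0.609), while both of its neighbours were. It was near the floor, with 34 counts over the control libraries and 39 over those of CIA, so a change there is hard to see. Beyond S100a9 the next protein-coding gene is Pglyrp4, which encodes a peptidoglycan recognition protein. It had 2, 2 and 2 counts in control, 30, 51 and 63 in CIA and 8, 7 and 7 with luteolin, moving in the same directions as S100a7a (4.67 ± 0.49, adjusted p = 5.19e-05, and -2.92 ± 0.41 with luteolin, adjusted p = 0.000225). Tchh, a hair follicle protein gene, lies before S100a11 with the untested Tchhl1 between them and was higher with luteolin than in CIA (2.04 ± 0.40, adjusted p = 0.00189).

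**Figure D4:**
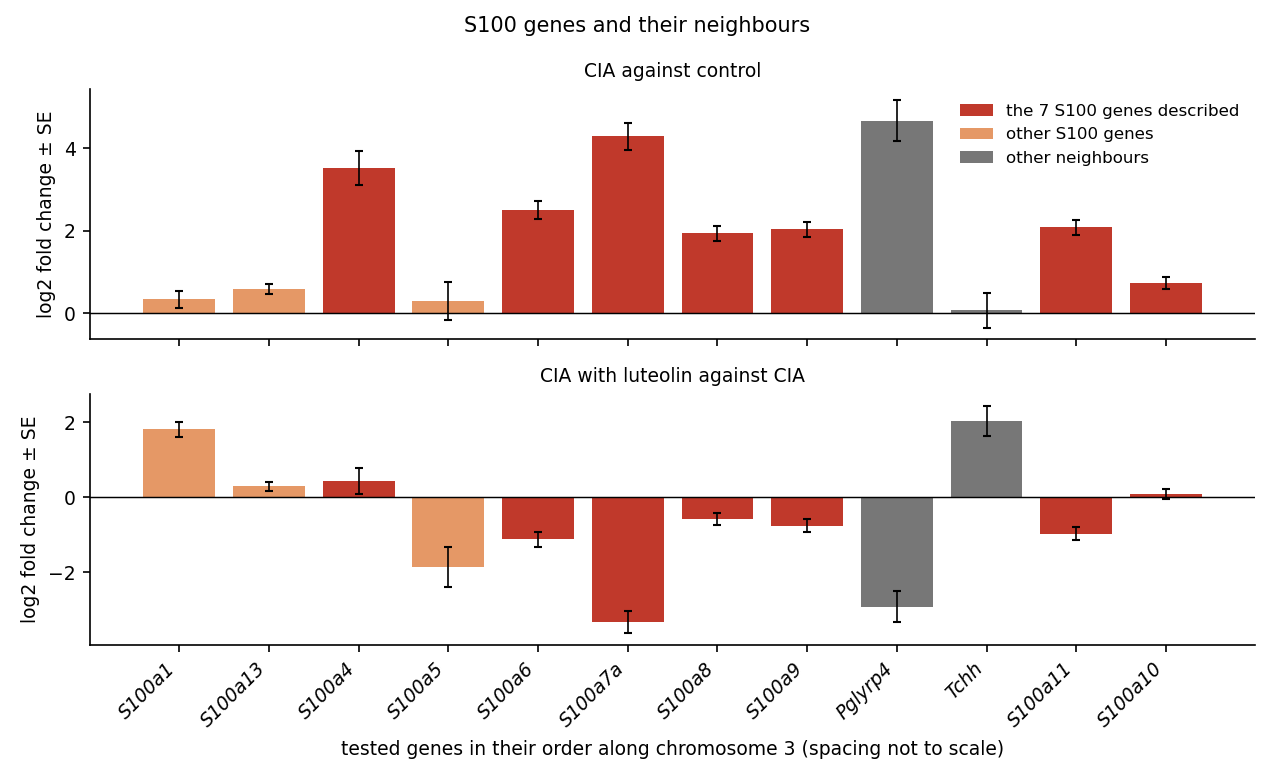
Bars give edgeR's log2 fold change with its SE for tested protein-coding genes that start within 100000 bases of the 7 genes, and other S100 genes of chromosome 3, in chromosomal order. In CIA the bars of S100a4 (3.53) and S100a6 (2.51) flank the small bar of S100a5 (0.30), which had 16 counts or fewer in any library. With luteolin S100a1 (1.81) and Tchh (2.04) point up.

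The 7 genes fell into like and unlike patterns when log2(CPM + 1) was centred on each gene's mean and compared by the root mean square difference over 9 libraries. S100a8, S100a9, S100a6 and S100a11 were within 0.169 to 0.248 of each other, the closest pair being S100a8 and S100a11 at 0.169, and S100a4 and S100a7a were the farthest at 1.49. Among 11344 other genes, Zfand4 was nearest to S100a9 (0.0987) and to S100a8 (0.116), followed by Cd300lb (0.118) for S100a8. Anxa2 (0.0873) was nearest to S100a6, Gprin3 (0.0736) to S100a11 and Fhip1a (0.0666) to S100a10. For S100a4 the nearest was Mmrn1 (0.225), leaving aside Gm42674 (0.00719), whose reads overlap its own and which was outside the search like other models named Gm. For S100a7a the nearest was Dhrs9 (0.246). S100a7a had a mean of 0.354 CPM in control and 0.69 with luteolin, where adding 1 before the log shrinks changes. Its distances and nearest genes depend on that addition. So does the match of S100a4 with Mmrn1, which had a mean of 0.207 CPM in control. In CIA against control Mmrn1 rose by 5.25 ± 0.45 on the log2 scale, beside 3.53 ± 0.41 for S100a4. The root mean square difference says how similarly the genes varied on this scale around their own means over the libraries, and nothing of their levels or of shared control.

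**Figure D5:**
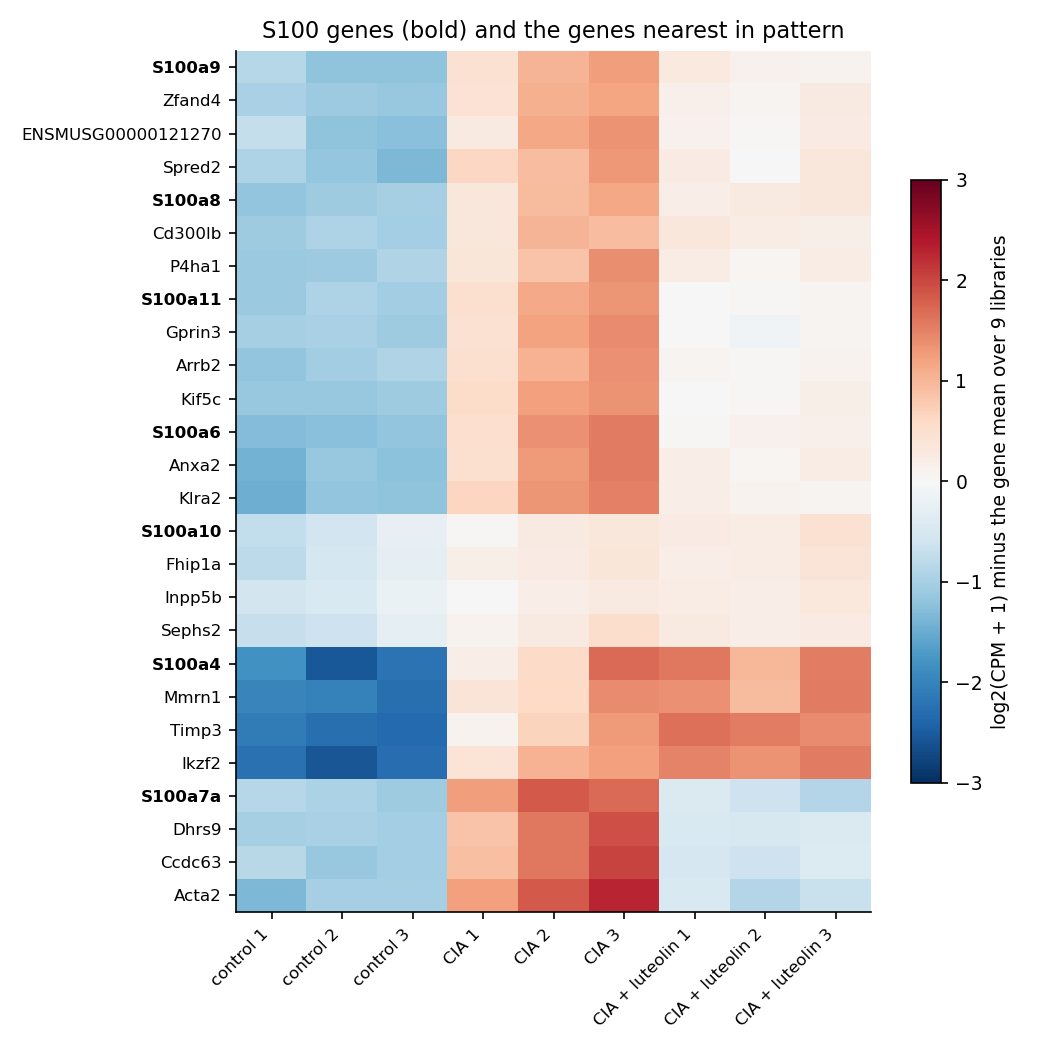
Colours give log2(CPM + 1) minus the gene's mean over 9 libraries, for the 7 S100 genes (bold) and the 3 genes nearest to each by root mean square difference. S100a4 and its neighbours are high in CIA and with luteolin, S100a7a and its neighbours in CIA, and Zfand4 (0.0987 from S100a9) is high in CIA and intermediate with luteolin.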

How the data were processed

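RNA of 9 libraries, 3 a group, was read as 150-base pairs from stranded mRNA libraries, per the labels' protocols. The authors deposited a raw count per gene, which they obtained with featureCounts of Subread 1.5.1 on reads that Trimmomatic 0.36 had trimmed, per the submitters' processing notes. The build in those notes is mm39, but the labels' protocols name CHOK1GS, a hamster cell line genome. The strand setting and the rule for reads on several genes are not given in the sources used here. Of values from 1 to 10, 73.4% were even against 52.8% from 201 to 1000, a sign that the mates of a fragment were counted separately. No library pair within a group was a duplicate (chi-square per degree of freedom of at least 5.51), and pairs across groups were not checked.

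The unaltered counts went into edgeR 4.0.16 (R 4.3.3): filterByExpr by group, TMM factors of 0.9501 to 1.0176, a quasi-likelihood fit with a term per group over 9 libraries, 2-sided tests and Benjamini-Hochberg adjustment over 19348 genes. An SE was obtained by dividing the log2 fold change by the root of F. The pipeline was tested on simulated data. The alternatives were DESeq2 1.42.0, total counts without TMM, scaling without S100a8 and S100a9, no filter, a stricter filter (10 counts in each library of a group and a mean of 1 CPM), the libraries compared alone, a replicate block and leaving out each library.

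The 7 genes and the lists were chosen with earlier results of these data known. Named are the other S100 genes, up to 4 genes of a list with the smallest p in a comparison, the 3 genes nearest in pattern to each of the 7 (mean of at least 2 CPM, models named Gm or ending in Rik and pseudogenes left out), and neighbours within 100000 bases. Promoter sequences come from RefSeq on GRCm38.p6 and were matched by symbol for 6 of 7 genes.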

Additional observations from a re-analysis of the deposited data

How the results depend on the processing

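Of 96 recounts of the S100 genes called, 94 stayed within 1.5 times the count given in the report. In luteolin against CIA the genes called higher went from 0 to 1, S100a4, with no filter (adjusted p = 0.00229) and without CIA replicate 3. Leaving out a library gave 0 to 1 there. With no filter, edgeR's adjusted p for S100a9 in CIA against control went from 1.8e-05 to 3.42e-151 at nearly the same fold change. Calls that S100a4, S100a7a and Cd36 gained in that fit therefore carry little weight. Of 336 refits of the 7 genes' fold changes 325 kept their direction and side of the threshold, 8 passed it and 3 no longer did, and none changed direction. The 3 were S100a8 in luteolin against CIA, with a change between -0.78 and -0.41 over its 16 alternatives. For the other genes given with a fold change, 988 of 1017 refits kept direction and side of the threshold, 23 no longer passed and 6 newly passed. The S100a8 to S100a9 ratio moved by less than 1 SD in 18 of 18 recounts. Leaving out 1 of 3 libraries cannot move a group mean by a full SD, so these recounts could not have come out otherwise. They say nothing of how stable the ratio is.

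The labels number the replicates 1 to 3 in each group, and nothing in them says that a number marks a shared animal, batch or day. Deviations of same-numbered libraries from their group means correlated from -0.051 to 0.263, not above 0.1 in every pair, so the numbers were not taken to pair the libraries. Each control library correlated best with its own number in both other groups. Among the luteolin libraries, CIA replicates 2 (0.263) and 3 (0.231) also correlated best with their own number. This is a hint of pairing from the data. The exception was CIA replicate 1, which correlated better with luteolin replicate 2 (0.225) than with luteolin replicate 1 (-0.051). With the replicate block, 7 of the S100 genes rose in CIA, 5 fell with luteolin against CIA and 6 rose with luteolin against control. S100a5 lost its call against control in that fit (adjusted p = 0.0515). Depth limits S100a7a in control (8 to 18 counts), S100b and S100a2.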
